A study of Homo sapiens with 9 samples.

Results

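The genes described here are ATF4 and its targets, 40 genes in all, the set that cells switch on when amino acids run short or unfolded proteins build up in the endoplasmic reticulum. They were chosen by name, with earlier results of these data known, and found through their Ensembl identifiers. They are 40 of the 60609 genes in the count tables. By role they comprise 16 stress factors, 10 enzymes of amino acid and one-carbon metabolism, 7 amino acid transporters and 7 tRNA genes, a group of aminoacyl-tRNA synthetases and the tRNA exporter XPOT. RNA depleted of ribosomal RNA was sequenced from 9 libraries of U2-OS, an established human osteosarcoma cell line. Of these, 6 libraries came from cells overexpressing NCBP2, which holds the RNA cap within the nuclear cap-binding complex. Clones A1 and A4 each gave replicates A, B and C. The other 3 libraries, here called vector replicates A, B and C by the letter in their titles, each came from a separate clone that carried an empty vector. The NCBP2 arm thus rests on 2 clones and the vector arm on 3, and the labels do not say whether the libraries of 1 clone were separate cultures. The p-values below therefore measure only the spread between these libraries, which within a clone may be technical. Between vector libraries the spread includes differences between clones, and within clone A1 or clone A4 it does not. The tests pool these unlike spreads, and those of the NCBP2 arm treat 6 libraries of 2 clones as replicates. No drug or amino acid starvation is named for any group, and all 9 libraries came from cells grown in serum-containing medium.

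ATF4 is a bZIP transcription factor whose mRNA is translated mainly when the translation initiation factor eIF2 is phosphorylated. The kinases that do this sense uncharged tRNA (GCN2, the product of EIF2AK4), unfolded proteins in the endoplasmic reticulum (PERK, EIF2AK3), double-stranded RNA (PKR, EIF2AK2) or lack of heme and mitochondrial stress (HRI, EIF2AK1). ATF4 binds, often with a C/EBP partner, a composite C/EBP-ATF element in front of genes for amino acid synthesis, uptake and tRNA charging, and of stress factors such as DDIT3 (CHOP) and TRIB3. In tumour cells this programme supplies serine, asparagine and cystine for growth. Since much of the control of ATF4 lies in its translation, the RNA counts describe its mRNA and the mRNAs of its targets and not ATF4 protein.

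The element was searched as TGATGNAAN on either strand of RefSeq promoter windows (GRCh38.p14), which run from 250 bases before to 50 bases after a transcript start. Of the 40 genes, 32 had a window, and 13 of these 32 (40.6%) held the element, against 4.45% of the 27305 genes with a window. The stricter form TGATGCAAN, whose matches are a subset of these, was in 8 of the 32 (25%), against 1.08% of genes. A gene counted if any of its windows matched, with 51 windows for the 32 members and 35116 for the 27305 genes. The 40 genes were chosen as ATF4 targets, so a higher share may follow from that choice and is no result of these data. By role the element was in 4 of 14 stress factors, 1 of 5 enzymes, 4 of 6 transporters and 4 of 7 tRNA genes. SLC7A11, NUPR1, VEGFA, PYCR1, ALDH1L2, PSPH, SHMT2 and GPT2 had no window. Stretches of 4 promoters are shown because their genes, a transcription factor, a glutathione-degrading enzyme, asparagine synthetase and a protein of the endoplasmic reticulum, are described below. They are written 5′ to 3′ on the strand of the gene, with the element in capitals. In the CHAC1 and HERPUD1 windows it reads on the opposite strand, so the capitals there are its complement.
ATF3, chr1:212565186-212565254, plus strand: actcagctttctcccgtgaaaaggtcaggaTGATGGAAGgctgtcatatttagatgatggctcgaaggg
CHAC1, chr15:40953251-40953279, plus strand: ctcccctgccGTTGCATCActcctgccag
ASNS, chr7:97872458-97872486, minus strand: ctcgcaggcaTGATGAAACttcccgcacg
HERPUD1, chr16:56931935-56932003, plus strand: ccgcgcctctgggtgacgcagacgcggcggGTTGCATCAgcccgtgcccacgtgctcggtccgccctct
The last base of the element lies 183 bases before the RefSeq start in ATF3, 202 in CHAC1, 60 in ASNS and 169 in HERPUD1. The stretches of CHAC1 and ASNS overlap an exon of another annotated transcript of the same gene. A match of letters does not show binding, which was not measured.

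Libraries held 80341579 to 111784333 reads, of which 29234022 to 50554080 were counted on the strand of a gene. NCBP2 was examined first as a check of the labels. Its level was 298.9 to 348 CPM in clone A1, 456 to 1035 CPM in clone A4 and 90.6 to 98.4 CPM in the vector libraries, where CPM is counts relative to the TMM-scaled library size, as computed by edgeR. Of the 8 osteosarcoma and osteoblast markers, only 4, RUNX2, COL1A1, SPARC and VIM, averaged over 10 CPM in each group. MSX2, ALPL, SPP1 and COL1A2 did so in no group, and COL1A2 averaged at most 0.554 CPM. The 9 markers of epithelial, blood, endothelial and liver cells and of telomerase summed to 4.41 to 10.3 CPM per library. They reached 4.41 to 6.72 CPM in clone A1, 6.17 to 9.17 CPM in clone A4 and 8.08 to 10.3 CPM in the vector libraries, with CD3E and TERT at 0 counts, and their part in the results was not tested. Clone A1 replicate A stood apart, with correlations of log2 CPM of 0.899 to 0.928 with the other libraries, which correlated at 0.947 to 0.970 among themselves. Libraries also differed in how counts followed the GC content of transcripts. From the lowest to the highest 20% of genes by GC content, the median deviation of log2 CPM from the mean over the libraries differed by -1.24 in clone A1 replicate A, by 0.97 in vector replicate B, by 0.77 in clone A4 replicate C and by -0.42 in vector replicate C.

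All 40 genes passed the filter on low counts and were tested, and no member passed a Benjamini-Hochberg adjusted p of 0.05 by edgeR's quasi-likelihood test in any comparison. The counts of called members were 0 of 40 for clone A1 against vector, where 0.0646% of the 21682 genes tested were called, 0 of 40 for clone A4 against vector (background 0.115%), 0 of 40 for clone A4 against clone A1 (0.161%) and 0 of 40 for the 6 NCBP2 libraries against vector (0.0184%). The smallest adjusted p of a member was 0.297, 0.349, 0.537 and 0.375, in the same order. Other tools called few members. By DESeq2 these were ALDH1L2 in clone A1, where it called 1.26% of the genes that it gave an adjusted p, and TRIB3 in clone A4 (1.01%). By voom with a quality weight per library they were ALDH1L2 in clone A1 (1.37% of genes), PSAT1 and TRIB3 in clone A4 (1.07%), and ASNS and ALDH1L2 in the NCBP2 arm (0.996%). All of them were lower than in the vector libraries.

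The direction was shared by most genes of the set. Log2 fold changes were below 0 for 33 of 40 members in clone A1 against vector, where 51.6% of all tested genes were below 0, and for 38 of 40 in clone A4 (46.4%). In the NCBP2 arm 36 of 40 were below 0, against 47.0% of all genes. The median log2 fold change of the members was -0.29 in clone A1, -0.24 in clone A4 and -0.24 in the NCBP2 arm, beside -0.02, 0.03 and 0.02 over all genes. Both clones were compared with the same 3 vector libraries, so these values are not independent of each other. Between the clones no common direction appeared, with 20 of 40 members below 0 in clone A4 against clone A1 (46.8% of all genes) and a median of 0.00 (0.04 over all genes). Without clone A1 replicate A the median of clone A1 was -0.12, with 34 of 40 members below 0, and without clone A4 replicate C the median of clone A4 was -0.42, with 37 of 40. Leaving out vector replicate C gave -0.38 in the NCBP2 arm and -0.37 in clone A4.

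**Figure D1:**
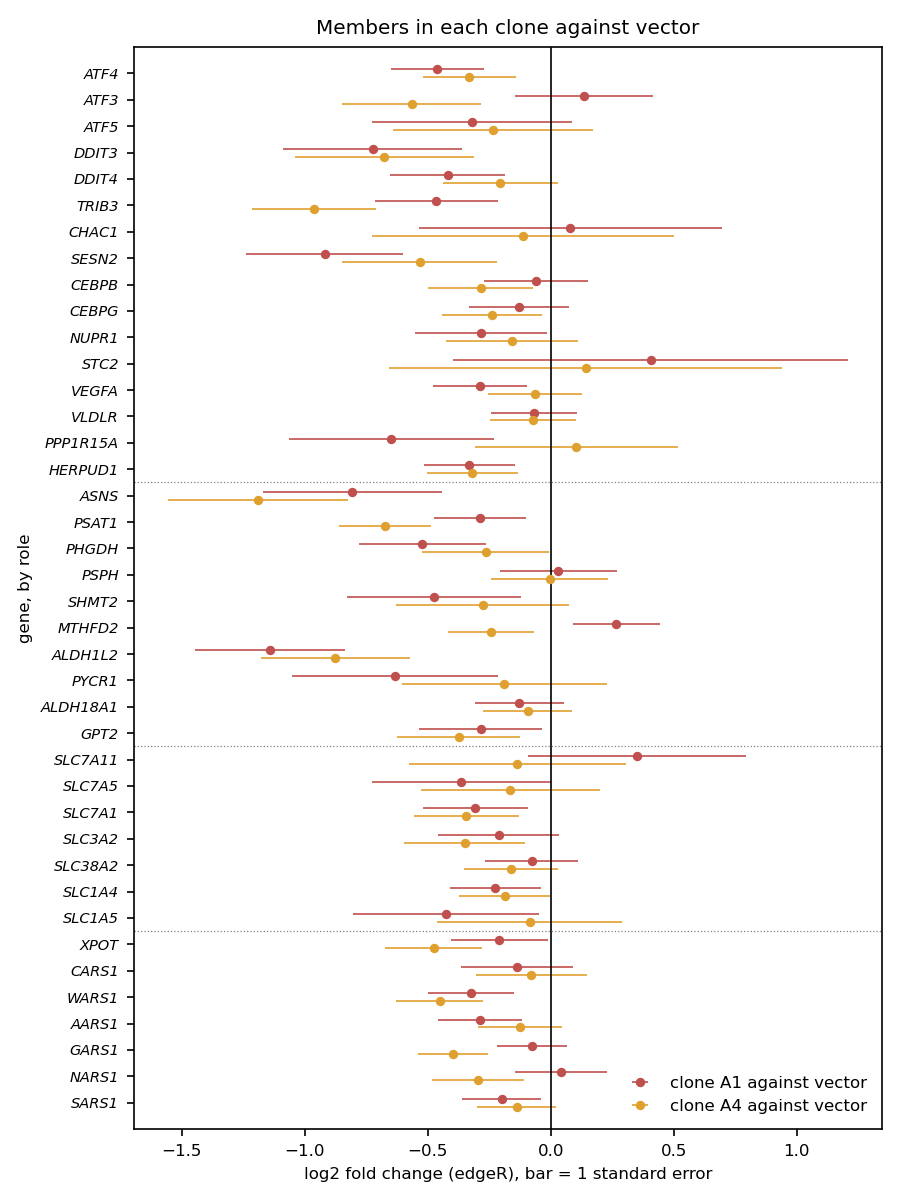
Log2 fold change of each of the 40 genes, grouped by role, in clone A1 (red) and clone A4 (yellow) against the 3 vector libraries by edgeR; bars are 1 standard error. Most points lie left of 0, with ASNS, ALDH1L2, TRIB3 and SESN2 farthest to the left, and no gene passed an adjusted p of 0.05.

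At an unadjusted p under 0.05 stood 4 members in clone A1, 7 in clone A4, 3 in clone A4 against clone A1 and 8 in the NCBP2 arm, all with the lower level in the first-named group. The shares of all genes lower at that p were 4.27%, 2.75%, 2.82% and 2.96%, in the same order. By voom the members at that p numbered 9, 18, 7 and 13, where 14.1%, 13.7%, 12.1% and 13.4% of all genes were, in either direction. With the GC correction described below they numbered 7, 16, 6 and 12, against 12.6%, 9.04%, 10.1% and 9.22% of all genes. By CPM without overlap between groups, 7 members were lower in clone A1 than in vector (8.06% of all genes were), 7 in clone A4 (5.86%) and 6 in clone A4 than in clone A1 (5.72%). In the NCBP2 arm, TRIB3 and WARS1 were the 2 members whose 6 libraries all lay below the 3 vector libraries (2.26% of genes). No member lay above without overlap in any of the 4 comparisons, where 6.18%, 6.2%, 7.92% and 1.47% of genes did. Counts of members depend on single libraries. At an unadjusted p under 0.05, leaving out vector replicate A brought the NCBP2 arm from 8 to 3, clone A4 from 7 to 3 and clone A1 from 4 to 2. Clone A1 was also at 2 without its replicate A and at 7 without vector replicate C, and clone A4 was at 11 without its replicate C. Between the clones the count was 1 without replicate B or C of clone A1 and also without replicate A of clone A4, 5 without vector replicate B, and without overlap it rose from 6 to 10 without clone A1 replicate A or clone A4 replicate B. Of members lower without overlap, leaving out vector replicate B or vector replicate C each raised the number in the NCBP2 arm from 2 to 9, and leaving out clone A4 replicate C raised it to 5. In clone A4 the number without overlap rose from 7 to 21 without clone A4 replicate C, to 15 without vector replicate B and to 14 without vector replicate C. In clone A1 it rose from 7 to 12 without clone A1 replicate B, to 12 without clone A1 replicate C, to 13 without vector replicate B and to 19 without vector replicate C. Fewer libraries by themselves make an overlap less likely. Shares of all genes with a library left out are not given for these counts. The rises and falls therefore describe how the counts depend on libraries and are no result about the members.

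**Figure D2:**
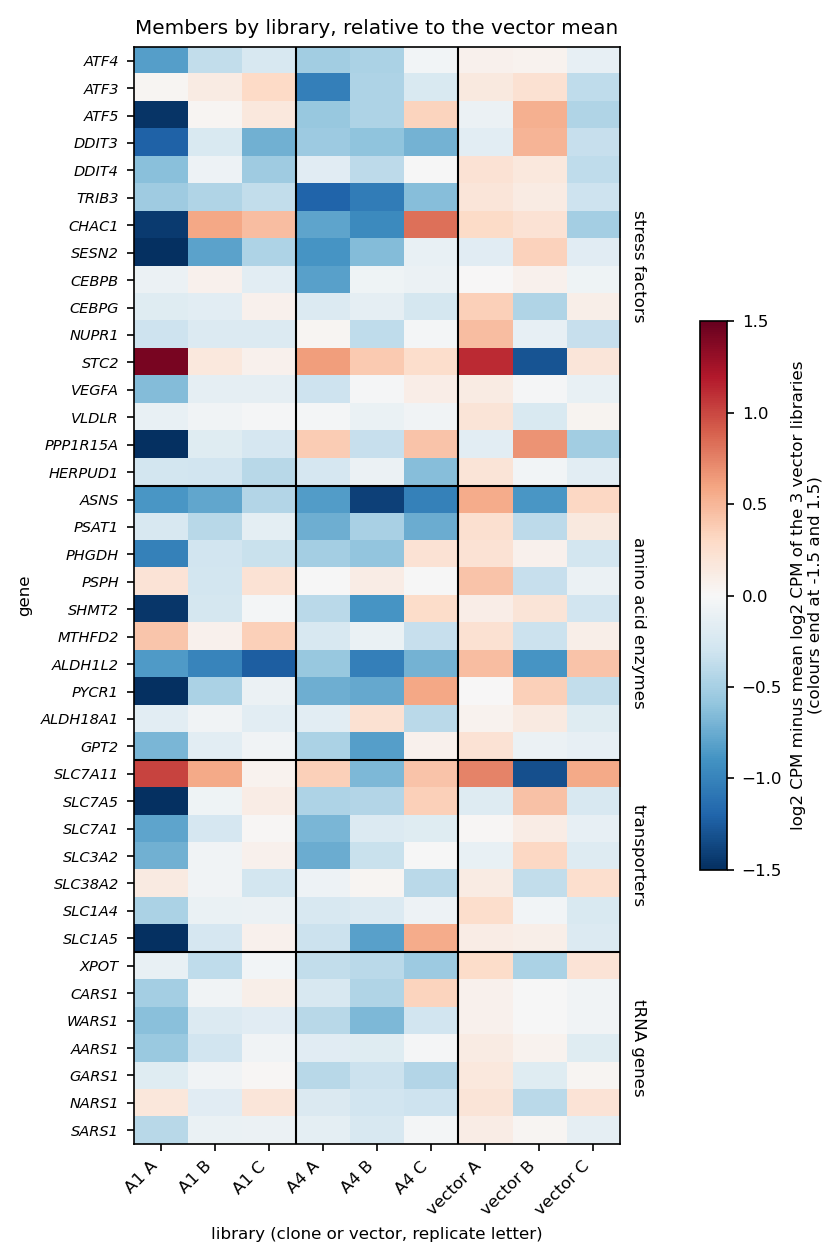
Log2 CPM of the 40 genes in the 9 libraries minus the mean of the 3 vector libraries, by role (blue is lower and red is higher, in log2 units, with colours ending at -1.5 and 1.5). Blue prevails in the clone columns, clone A1 replicate A holds both the deepest blue and some red cells, and vector replicate B differs from the other vector libraries in ASNS, ALDH1L2, SLC7A11 and STC2.

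Set against the vector mean, the median member of clone A1 stood at -0.55, -0.17 and -0.07 log2 units for replicates A, B and C. It stood at -0.39, -0.40 and -0.05 in those of clone A4. In vector replicates A, B and C it was 0.15, 0.01 and -0.13. Vector replicate C thus lay below clone A1 replicate C and clone A4 replicate C, and the groups overlapped. With a correction of each library for GC content, described next, the medians were -0.37, -0.38 and -0.22 in clone A4, -0.27, -0.17 and -0.10 in clone A1 and 0.17, -0.16 and -0.02 in vector. Clone A4 then lay below all vector libraries, and clone A1 still overlapped them. The medians over all genes ran from -0.12 to 0.07 in the 9 libraries.

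Deviations of the members were also related to the GC content of their transcripts in several libraries, and its part in the spread was not tested. Transcripts of the members ranged from 35.4% GC (SLC7A11) to 66.2%, with a median of 51.9% against 46.8% for all tested genes. Across the 40 members, deviations from the gene mean correlated with GC content at r = -0.68 in clone A1 replicate A, 0.71 in clone A4 replicate C, 0.69 in vector replicate B and -0.54 in vector replicate C, as a description of these libraries. Clone A1 replicate A was the lowest of the 9 libraries in 18 members, all between 50.5% and 63.1% GC. Vector replicate B was the lowest vector library in 13 members with a median of 41.7% GC and the highest in 12 members with a median of 58.4%. With a correction of each library for GC content, chosen after these trends were seen, log2 fold changes were below 0 for 33, 38 and 37 of the 40 members in clone A1, clone A4 and the NCBP2 arm, with medians of -0.18, -0.35 and -0.23. In clone A4 against clone A1 the correction moved the number below 0 from 20 to 32 of 40 and the median from 0.00 to -0.10. It called ALDH1L2 in clone A1, with 0.89% of all genes, and SESN2 in the NCBP2 arm, with 0.3%, and 17 members then had no overlap in clone A4 (16.5% of all genes) and 5 in the NCBP2 arm (5.6%).

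**Figure D3:**
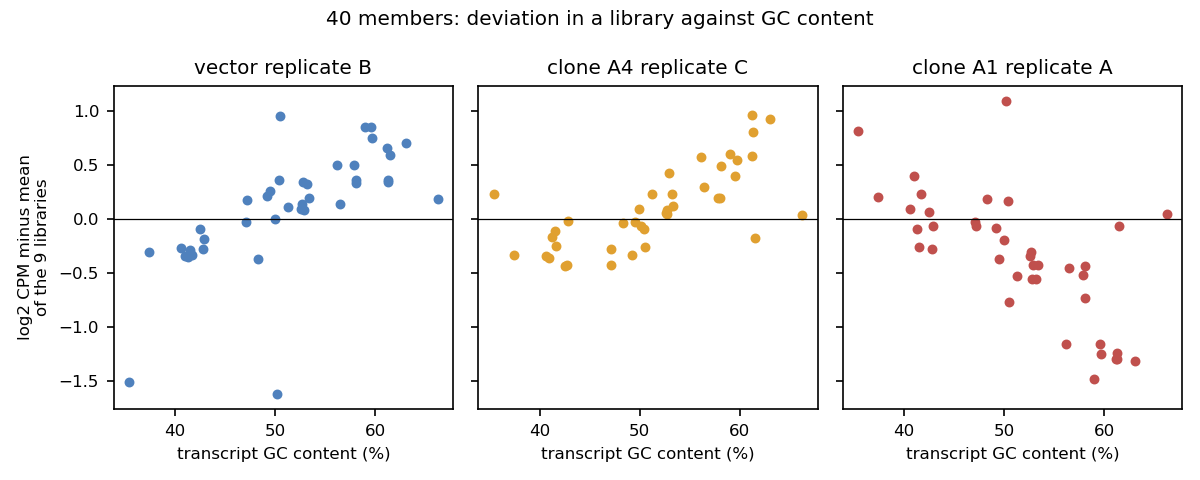
Each point is 1 of the 40 genes: transcript GC content (percent) on the x axis and log2 CPM minus the mean of the 9 libraries on the y axis, for vector replicate B, clone A4 replicate C and clone A1 replicate A. Values climb with GC content in the first and second panels (r = 0.69 and 0.71) and descend in the last (r = -0.68).

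Levels per length in the vector libraries, as CPM per kilobase of transcript (RPKM), spanned the set from SLC38A2, a sodium-coupled neutral amino acid transporter, at 273.8 RPKM ± 58.7 (SD, n = 3) to STC2, a secreted glycoprotein, at 0.12 RPKM ± 0.0939. After SLC38A2 came GARS1 at 200.7 RPKM ± 23.2 and ATF4 at 163.7 RPKM ± 11.7. These top 3 differed from their neighbours in the order by about their SD or more, and PSAT1 followed at 74.8 RPKM ± 16.5 and MTHFD2 at 64.2 RPKM ± 12.3, which lay within each other's spread. The median was 50.5 RPKM for the tRNA genes, 28.6 for the transporters, 21.5 for the enzymes and 6.44 for the stress factors. DDIT3 stood at 5.22 RPKM ± 1.75, ATF3 at 5.05 ± 1.07, CHAC1 at 1.28 ± 0.361 and ASNS at 3.88 ± 1.73. These classic indicators of the response each lay below the median of their role, whereas the targets PSAT1 and MTHFD2 came directly after ATF4. No group with a named stress was available for reference, so whether the response was active was not tested. In counts, CHAC1 had 19 to 151 reads per library and STC2 7 to 43, whereas ATF4 had 3708 to 12327.

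ATF4 (ENSG00000128272.14, chromosome 22, 39519695 to 39522683, plus strand, GRCh38) was lower in clone A1 than in vector in each library. Replicates A, B and C held 130.5, 180.1 and 196 CPM for clone A1, 162, 167 and 225 CPM for clone A4 and 243, 241 and 213 CPM for vector. All of clone A1 lay below all vector libraries, while clone A4 replicate C reached above vector replicate C. The log2 fold change was -0.46 in clone A1 (SE 0.190, unadjusted p 0.0317, adjusted p 0.604) and -0.33 in clone A4 (SE 0.190, adjusted p 1), so neither passed the test. It was -0.39 in the NCBP2 arm (SE 0.161, adjusted p 0.784). Tested genes around the ATF4 locus, 20 on either side, had a median of -0.12 there, and of -0.37 in clone A1 and 0.06 in clone A4. Without clone A1 replicate A the value in clone A1 was -0.30.

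Of the other stress factors, TRIB3, a pseudokinase that feeds back on ATF4 and CHOP, was lower in each clone without overlap. Its level was 9.19, 9.73 and 10.3 CPM in clone A1, with 5.77, 6.39 and 8.51 CPM in clone A4 against 15.1, 14.5 and 10.7 CPM in vector, for replicates A, B and C in each group. The 3 groups formed 3 separate bands, with vector highest and clone A4 lowest, though clone A1 replicate C was within 1 CPM of vector replicate C. By edgeR, the log2 fold change was -0.96 in clone A4 (SE 0.252, unadjusted p 0.00235, adjusted p 0.349) and -0.47 in clone A1 (SE 0.251, adjusted p 0.721). It was -0.69 in the NCBP2 arm (SE 0.238, adjusted p 0.634) and -0.50 for clone A4 against clone A1 (SE 0.252, adjusted p 0.775). TRIB3 is a GC-rich member at 61.5% GC, and with the GC correction its values were -1.13 in clone A4, -0.14 in clone A1 and -0.99 between the clones. By DESeq2 the adjusted p in clone A4 was 0.0203, with a range of 0.0203 to 1 over the 17 alternatives, of which 2 were under 0.05.

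SESN2, a leucine sensor that restrains mTORC1, measured 7.67, 14.01 and 17.7 CPM in clone A1, 13.2, 15.6 and 22.7 CPM for clone A4 and 21.7, 31.1 and 21.8 CPM for vector. Clone A1 lay wholly below vector, and clone A4 replicate C overlapped it. Its log2 fold change was -0.92 in clone A1 (SE 0.318, adjusted p 0.458) and -0.71 in the NCBP2 arm (SE 0.274, adjusted p 0.729), the latter named after its value was seen. With the GC correction the NCBP2 arm gave -0.69 with an adjusted p of 0.0474, and over the 16 alternatives the adjusted p ran from 0.0474 to 1. Without clone A1 replicate A, which held the lowest SESN2 level of all libraries, clone A1 gave -0.64.

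DDIT3, which encodes the pro-apoptotic factor CHOP, was at 1.94, 3.87 and 2.75 CPM in clone A1, with 3.11, 2.98 and 2.78 CPM in clone A4 against 4.07, 6.52 and 3.56 CPM in vector. Clone A4 lay below all vector libraries, and clone A1 replicate B lay above vector replicate C. On the log2 scale the difference was -0.72 in clone A1 (SE 0.365, adjusted p 0.695) and -0.68 in clone A4 (SE 0.363, adjusted p 1). In the NCBP2 arm it was -0.70 (SE 0.299, adjusted p 0.832), and without vector replicate B it was -0.39. Between 45.7% and 70.2% of the stranded counts at DDIT3 fell on the opposite strand. There the synthetase gene MARS1 (plus strand, ending at 57517569) overlaps DDIT3 (minus strand, 57516588 to 57521737). Counts taken without regard to strand can thus include reads of MARS1 and are not a measure of DDIT3 alone. They gave -0.99 in clone A1, -0.27 in clone A4 and 0.72 for clone A4 against clone A1, where the stranded counts gave 0.05.

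ATF3, a stress-induced bZIP repressor, stood apart from this direction in clone A1. It measured 9.82, 10.5 and 11.9 CPM in clone A1, 4.70, 6.96 and 8.22 CPM for clone A4 and 10.7, 11.3 and 7.42 CPM for vector. All libraries of clone A4 lay below all of clone A1, and vector overlapped both. This gave a log2 fold change of 0.13 in clone A1 (SE 0.280, adjusted p 0.939), -0.57 in clone A4 (SE 0.281, adjusted p 1) and -0.70 for clone A4 against clone A1 (SE 0.282, unadjusted p 0.0287, adjusted p 0.668). HERPUD1, a component of endoplasmic-reticulum-associated degradation, held 51.5, 51.2 and 46.9 CPM in clone A1, below the 71.5, 60.8 and 55.8 CPM of vector, with -0.33 (SE 0.186, adjusted p 0.730). In clone A4 its libraries held 52.3, 58.6 and 39.97 CPM and overlapped vector.

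CHAC1, which degrades glutathione and is among the most inducible ATF4 targets, varied between libraries of 1 clone more than between groups. It was at 0.669, 2.85 and 2.63 CPM in clone A1, with 1.07, 0.956 and 3.38 CPM in clone A4 against 2.32, 2.21 and 1.32 CPM in vector. The fitted log2 fold change was -0.01 in the NCBP2 arm (SE 0.517, adjusted p 0.999), and its sign differed between alternatives. Over the 16 stress factors, 13 were below 0 in clone A1, 14 in clone A4 and 15 in the NCBP2 arm, with a median of -0.22 in the arm. STC2 was the exception in the arm at 0.28 (SE 0.674). The remaining members ATF5, DDIT4, CEBPB, CEBPG, NUPR1, VEGFA, VLDLR and PPP1R15A ran from -0.31 (DDIT4) to -0.07 (VLDLR) in the arm. PPP1R15A, the phosphatase subunit that reverses eIF2 phosphorylation, differed in sign between the clones, at -0.65 in clone A1 (SE 0.417) and 0.10 in clone A4 (SE 0.413), with an adjusted p of 0.790 for the difference between them.

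**Figure D4:**
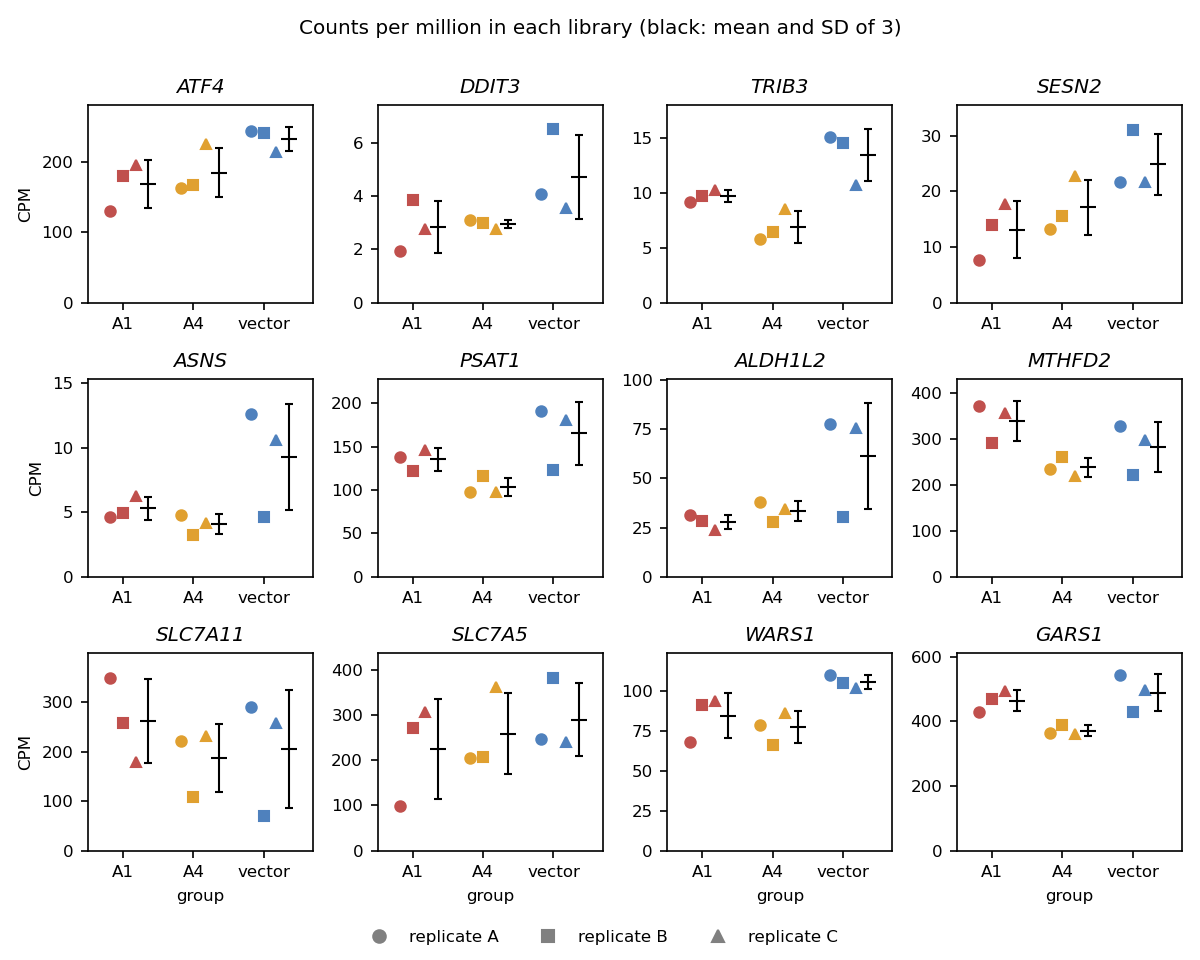
CPM on the y axis (from 0) of 12 genes in clone A1 (red), clone A4 (yellow) and vector (blue); circles, squares and triangles are replicates A, B and C, and the black mark is the mean with its SD (n = 3). TRIB3 and WARS1 lie below vector in all 6 NCBP2 libraries, while in ASNS, ALDH1L2 and SLC7A11 the vector square (replicate B) lies far under the other vector points.

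Among the enzymes, ALDH1L2, the mitochondrial 10-formyltetrahydrofolate dehydrogenase, had the lowest log2 fold change of all members in the NCBP2 arm and in clone A1. It was singled out after its values were seen. The NCBP2 libraries held 31.2, 28.4 and 23.9 CPM in clone A1 and 38.1, 27.8 and 34.5 CPM in clone A4. Vector replicates A and C held 77.8 and 75.8 CPM, and vector replicate B held 30.6 CPM. The NCBP2 libraries formed a narrow band at less than the level of vector replicates A and C, and vector replicate B lay inside that band. The log2 fold change was -1.14 in clone A1 (SE 0.305, unadjusted p 0.00270, adjusted p 0.297), -0.88 in clone A4 (SE 0.303, adjusted p 0.654) and -1.002 in the NCBP2 arm (SE 0.252, adjusted p 0.375). Without vector replicate B these were -1.46, -1.20 and -1.33, with adjusted p of 0.0190, 0.0420 and 0.0268. That fit called 0.0613%, 0.153% and 0.0306% of all genes. In clone A1 the adjusted p ranged from 6.79e-04 to 0.864 over 17 alternatives and was under 0.05 in 5. In clone A4 it ranged from 0.0420 to 1 over 17 alternatives and in the NCBP2 arm from 0.00976 to 1 over 16, under 0.05 in 2 each. The share of stranded counts on the opposite strand of ALDH1L2 was 10.1% to 15.7% in the NCBP2 libraries and 4.62% to 7.23% in vector.

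ASNS, asparagine synthetase, showed the same arrangement of libraries at a lower level. It measured 4.64, 4.95 and 6.28 CPM in clone A1, 4.76, 3.21 and 4.19 CPM for clone A4 and 12.6, 4.64 and 10.6 CPM for vector. Vector replicates A and C lay above every NCBP2 library and vector replicate B lay among them. By edgeR, the log2 fold change was -1.19 in clone A4 (SE 0.366, adjusted p 0.510), -0.81 in clone A1 (SE 0.363, adjusted p 0.659) and -0.99 in the NCBP2 arm (SE 0.309, unadjusted p 0.00702, adjusted p 0.565). The voom fit gave -1.14 in the NCBP2 arm with an adjusted p of 0.0428, where the 16 alternatives ran from 0.0428 to 1. The 40 tested genes around ASNS had a median log2 fold change of -0.22 in the arm. With the GC correction, the ASNS values were -1.15 in clone A4 and -0.97 in the arm.

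PSAT1 and PHGDH catalyse early steps of serine synthesis. PSAT1 was at 138, 121 and 147 CPM in clone A1, with 97.4, 116 and 97.2 CPM in clone A4 against 192, 124 and 180.1 CPM in vector. Clone A4 lay below every vector and clone A1 library, and clone A1 replicate B lay just under vector replicate B. Its log2 fold change was -0.67 in clone A4 (SE 0.187, unadjusted p 0.00352, adjusted p 0.413), -0.29 in clone A1 (SE 0.186, adjusted p 0.766) and -0.39 between the clones (SE 0.187, adjusted p 0.764). By voom the adjusted p in clone A4 was 0.0160, the lowest of 17 alternatives that reached up to 1.

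PHGDH was at 39.7, 65.5 and 63.4 CPM in clone A1, 56.1, 52.9 and 92.4 CPM for clone A4 and 92.8, 83.2 and 65.9 CPM for vector. Clone A1 lay under vector without overlap, though its replicate B was within 1 CPM of vector replicate C. Clone A4 replicate C was level with the highest vector library. On the log2 scale the difference was -0.52 in clone A1 (SE 0.259, adjusted p 0.693) and -0.26 in clone A4 (SE 0.258, adjusted p 1). Without clone A1 replicate A, the value in clone A1 was -0.32. PSPH, the last enzyme of serine synthesis, gave 0.03 in clone A1 (SE 0.238) and 0.00 in clone A4 (SE 0.237).

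MTHFD2, a mitochondrial one-carbon enzyme, was the member with the smallest adjusted p between the clones. It held 371, 290.5 and 358 CPM in clone A1, with 235, 261 and 220.1 CPM in clone A4 against 328, 222 and 298 CPM in vector. Clone A4 lay wholly below clone A1, and vector overlapped both. Clone A1 replicates A and C lay above every vector library. This gave a log2 fold change of -0.51 for clone A4 against clone A1 (SE 0.176, unadjusted p 0.0133, adjusted p 0.537), 0.27 in clone A1 (SE 0.176, adjusted p 0.770) and -0.24 in clone A4 (SE 0.176, adjusted p 1). SHMT2, which feeds the same pathway from serine, gave -0.48 in clone A1 (SE 0.353) and -0.28 in clone A4 (SE 0.352). Of the 10 enzymes, 8 were below 0 in clone A1, 10 in clone A4 and 8 in the NCBP2 arm, with a median of -0.38 in the arm. PYCR1 and ALDH18A1 of proline synthesis and the alanine aminotransferase GPT2 gave -0.39 (SE 0.36), -0.11 (SE 0.153) and -0.33 (SE 0.208) there.

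Among the transporters, SLC7A11, the cystine-glutamate exchanger subunit xCT, ranged from 69.5 CPM in vector replicate B to 349 CPM in clone A1 replicate A. It was at 349, 258 and 180 CPM in clone A1, 221, 108 and 232 CPM for clone A4 and 290.1, 69.5 and 257 CPM for vector, so all 3 groups overlapped. The fitted log2 fold change was 0.35 in clone A1 (SE 0.443, adjusted p 0.887), -0.14 in clone A4 (SE 0.442, adjusted p 1) and 0.13 in the NCBP2 arm (SE 0.390, adjusted p 0.999). It has the lowest GC content of the members.

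SLC7A5, the large neutral amino acid transporter LAT1 with 61.2% GC, was at 99.2, 271 and 306 CPM in clone A1, with 205, 208 and 363 CPM in clone A4 against 247, 383 and 239.8 CPM in vector. Clone A1 replicate A was lowest and vector replicate B highest, with the groups overlapping. The log2 fold change was -0.36 in clone A1 (SE 0.365, adjusted p 0.860) and -0.16 in clone A4 (SE 0.364, adjusted p 1). With the GC correction, the 9 libraries of SLC7A5 narrowed to 178 to 281 CPM and those of SLC7A11 to 113 to 256 CPM. Over the 7 transporters, 6 were below 0 in clone A1, 7 in clone A4 and 6 in the NCBP2 arm. In the arm SLC7A1, a cationic amino acid transporter, gave -0.32 (SE 0.177), SLC3A2, the heavy chain that partners SLC7A5 and SLC7A11, gave -0.28 (SE 0.208), and SLC38A2 gave -0.12 (SE 0.161). SLC1A4 and SLC1A5, exchangers of small neutral amino acids, gave -0.21 (SE 0.155) and -0.25 (SE 0.323).

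Of the tRNA genes, WARS1, tryptophanyl-tRNA synthetase, was at 68.3, 91.5 and 93.7 CPM in clone A1, 79.1, 66.4 and 86.6 CPM for clone A4 and 110.3, 105 and 102 CPM for vector. All 6 NCBP2 libraries lay below all 3 vector libraries. By edgeR, the log2 fold change was -0.32 in clone A1 (SE 0.175, adjusted p 0.721), -0.45 in clone A4 (SE 0.175, adjusted p 0.771) and -0.39 in the NCBP2 arm (SE 0.149, unadjusted p 0.0221, adjusted p 0.730). The vector libraries differed little in WARS1, at 106 CPM ± 4.34 (SD, n = 3), beside 80.9 CPM ± 11.7 (SD, n = 6) in the arm.

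GARS1, glycyl-tRNA synthetase, was at 428, 469.9 and 492 CPM in clone A1, with 364, 389.5 and 360.4 CPM in clone A4 against 542, 429.6 and 496 CPM in vector. Clone A4 lay below both other groups without overlap, and clone A1 lay within the vector range or just under it. Its log2 fold change was -0.40 in clone A4 (SE 0.143, unadjusted p 0.0164, adjusted p 0.686) and -0.08 in clone A1 (SE 0.143, adjusted p 0.928). For clone A4 against clone A1 it was -0.32 (SE 0.143, adjusted p 0.735). NARS1, asparaginyl-tRNA synthetase, held 160.3, 127 and 162 CPM in clone A1 and 123, 118 and 115 CPM in clone A4, without overlap, with -0.34 between the clones (SE 0.187, adjusted p 0.790). Its vector libraries, at 163, 108 and 165 CPM, spanned both clones.

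All 7 tRNA genes were below 0 in clone A4 and in the NCBP2 arm and 6 were in clone A1. In the arm they ran from -0.39 (WARS1) to -0.11 (CARS1), with a median of -0.20. XPOT, which exports tRNA from the nucleus, gave -0.34 (SE 0.175), AARS1 -0.20 (SE 0.148) and SARS1 -0.17 (SE 0.136). Members with the C/EBP-ATF element in the promoter window had a median log2 fold change of -0.21 in the NCBP2 arm, and those of the 32 without it -0.28. In clone A4 the medians were -0.30 with the element and -0.24 without it.

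The rest of the pathway was read from lists with no gene among the 40. In the list of 25 further ATF4 targets, 0 genes passed an adjusted p of 0.05 in any comparison. Of these 25, 22 were below 0 in clone A1, 23 in clone A4 and 22 in the NCBP2 arm, with medians of -0.37, -0.31 and -0.26. Of all genes tested, 51.6%, 46.4% and 47.0% were below 0. The lists were chosen with earlier results of these data known and were compared with the same vector libraries. These counts are therefore no independent support for the direction of the 40 genes. GDF15, a stress-induced cytokine, was at 0 to 0.296 CPM in the NCBP2 libraries and 0.546 to 0.867 CPM in vector. These stand for 0 to 13 counts and 28 to 40 counts per library, and the groups did not overlap. Its log2 fold change in the NCBP2 arm was -2.05 (SE 0.850, unadjusted p 0.0309, adjusted p 0.798). INHBE, a hepatic activin subunit also induced by stress, was at 0.168, 0.387 and 0.918 CPM in clone A4 against 2.69, 2.75 and 1.98 CPM in vector, with -2.33 (SE 0.640, unadjusted p 0.00331, adjusted p 0.412). CTH, cystathionine gamma-lyase of cysteine synthesis, was at 12.7, 13.0 and 11.9 CPM in clone A4, below 28.4, 15.8 and 27.0 CPM in vector, with -0.92 (SE 0.247, adjusted p 0.384). For clone A4 against clone A1 the CTH value was -0.53 (SE 0.247, adjusted p 0.756) and that of SQSTM1, an autophagy receptor, was 0.49 (SE 0.257, adjusted p 0.782), without overlap in either gene. SLC7A3, a cationic amino acid transporter, was at 0 to 0.376 CPM in clone A1 and 0.781 to 1.04 CPM in vector.

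The eIF2 axis upstream of ATF4, with the kinases, the subunits of eIF2 and its exchange factor eIF2B and the phosphatase subunit PPP1R15B, showed no common direction. Of its 15 genes, 7 were below 0 in the NCBP2 arm, with a median of 0.01, and 0 passed the test in any comparison. EIF2B2, a subunit of eIF2B, was at 38.9 to 45.8 CPM in clone A1 and 39.97 to 49.6 CPM in clone A4. Its vector libraries were at 49.8 to 72.8 CPM, without overlap but above clone A4 by a narrow margin. The log2 fold change in the arm was -0.50 by edgeR (SE 0.159, unadjusted p 0.00748, adjusted p 0.568). EIF2B2 lies on chromosome 14 (75002921 to 75012366), and the tested genes around it were not examined here. EIF2AK4, which encodes the amino acid sensor GCN2, averaged 140 CPM ± 12.2 (SD, n = 3) in clone A1, 106 CPM ± 4.35 in clone A4 and 113 CPM ± 5.39 in vector. Its value was 0.31 in clone A1 (SE 0.145, adjusted p 0.671) and -0.41 for clone A4 against clone A1 (SE 0.145, adjusted p 0.560).

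The list of cytosolic synthetases that are not among the 40 also held the associated proteins AIMP1, AIMP2 and EEF1E1. Of its 17 genes, 11 were below 0 in the NCBP2 arm with a median of -0.07. By clone, 7 were below 0 in clone A1 (median 0.03) and 12 in clone A4 (median -0.13). The mitochondrial synthetases had 6 of 17 below 0 in the arm with a median of 0.08. No gene of these lists passed the test in any comparison. IARS1 was lower in clone A4 than in vector without overlap, at -0.43 (SE 0.151, adjusted p 0.671). Among the mitochondrial enzymes in clone A1, PARS2 gave -0.73 (SE 0.266, adjusted p 0.501) and MARS2 0.61 (SE 0.257, adjusted p 0.616), each without overlap.

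Of the targets of ATF6 and XBP1, the other arms of the unfolded protein response, 18 of 19 were tested, and 10 were below 0 in the NCBP2 arm with a median of -0.01. In clone A1 13 of the 18 were below 0 with a median of -0.16, and in clone A4 8 were with a median of 0.05. No gene of this list passed the test in any comparison. PDIA4, a protein disulfide isomerase, was at 62.9 to 77.1 CPM in the NCBP2 libraries and 90.3 to 123 CPM in vector, with -0.67 (SE 0.143, unadjusted p 4.2e-04, adjusted p 0.198) in the arm. XBP1 was at 73.5 to 102 CPM against 103 to 146 CPM, with -0.50 (SE 0.155, adjusted p 0.552). In both genes all NCBP2 libraries lay below all vector libraries, in XBP1 by a narrow margin. CRELD2 differed without overlap between the clones, at 0.63 for clone A4 against clone A1 (SE 0.262, adjusted p 0.683). In bulk RNA, fewer cells with a transcript and less of it per cell cannot be told apart, and an adjusted p above the threshold does not show that levels were equal.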

How the data were processed

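The deposited tables hold raw counts per gene, and the authors aligned to GRCh38 with STAR 2.7.1a, per the submitters' processing notes. The first 4 lines of a table count reads outside any gene tally (44.5% to 63.6% of reads) and were left out, and the counts on the strand of the gene were used. The annotation behind the counts is not given in the sources used here. Symbols, lengths and GC content came from GENCODE release 44, to which 60295 of 60609 identifiers matched. The labels' protocols name ribosomal RNA depletion with a KAPA kit, whereas the molecule field names polyadenylated RNA.

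Groups were taken from titles. edgeR 4.0.16 (R 4.3.3) was run with filterByExpr, TMM scaling and the robust quasi-likelihood test on all genes, with Benjamini-Hochberg adjustment over 21682. A fit with 3 groups gave the clone comparisons and a fit with 2 groups the NCBP2 arm of 6 libraries against the 3 vector libraries. The common biological coefficient of variation was 0.411 and 0.428. CPM used TMM-scaled library sizes, log2 CPM a prior count of 2, and RPKM the transcript length. No libraries of a group agreed within sampling noise (lowest chi-square per degree of freedom 26.9). The code was tested on simulated data.

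The members and lists were chosen with earlier results of these data known. Values in every library are given for 12 anchor genes, for any called member and for up to 5 members per comparison and direction without overlap. From other lists up to 2 are named. ALDH1L2, and SESN2 in the NCBP2 arm, were added after their values were seen. Alternatives were DESeq2 1.42.0, voom (limma 3.58.1), RLE size factors, no filter, unstranded counts, a replicate block, fewer libraries and each library left out. A GC correction (lowess of log2 CPM on transcript GC content per library, span 0.3) was added after the data were seen.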

Additional observations from a re-analysis of the deposited data

Results flagged for a closer look

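In 3 of the 40 members, 1 of the 6 NCBP2 libraries lay apart from the other 5 by Dixon's test, which flags about 1 gene in 20 by chance. CEBPB, a C/EBP partner of ATF4, was at 22.7 CPM in clone A4 replicate A, and the nearest NCBP2 library was at 35.6 CPM. CEBPG, another C/EBP partner, was at 74.5 CPM in clone A1 replicate C against 64.7 CPM in the nearest library. STC2 was at 1.16 CPM in clone A1 replicate A against 0.650 CPM in the nearest library, which stand for 33 and 31 counts.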

How the results depend on the processing

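In the comparisons of clone A1, clone A4 and the NCBP2 arm with vector and of clone A4 with clone A1, the number of genes called was 14, 25, 4 and 35 by edgeR, which tested 21682. In the same order it was 274, 185, 103 and 246 by DESeq2, 297, 233, 216 and 149 by voom, 312, 163, 20 and 231 without the filter on low counts, and 193, 146, 65 and 190 with the GC correction. DESeq2 gave an adjusted p to 21674 genes in clone A1 and to 18314 in clone A4. The fit without the filter tested a larger set of genes. Fitting only the libraries compared gave 7 in clone A1. Of the members, DESeq2 and the fit without the filter each called 1 in clone A1 and 1 in clone A4, voom called 1, 2 and 2 in clone A1, clone A4 and the NCBP2 arm, and the GC correction called 1 in clone A1 and 1 in the NCBP2 arm. With the GC correction, members without overlap numbered 17 in clone A4 (16.5% of all genes) and 5 in the NCBP2 arm (5.6%). RLE size factors and unstranded counts changed none of these counts by over 1.5 times. The causes were not tested.

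The log2 fold change of ALDH1L2, ASNS, SESN2, TRIB3, PSAT1, WARS1, GARS1 and HERPUD1 kept its sign in every comparison named for it under each alternative. By voom the sign turned for SLC7A11 (-0.074) and SLC7A5 (0.047) in clone A1, for CHAC1 (0.0024), MTHFD2 (-0.10) and SLC7A11 (-0.23) in the NCBP2 arm, and between the clones for ATF4 (-0.058), DDIT3 (-0.093), PHGDH (-0.012) and SLC7A5 (-0.19). With the GC correction it turned between the clones for ATF4 (-0.017), DDIT3 (-0.027), PHGDH (-0.067) and SLC7A5 (-0.14) and in the NCBP2 arm for MTHFD2 (-0.011).

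With each library left out in turn, genes called ranged from 3 to 14 in clone A1, 7 to 41 in clone A4, 1 to 8 in the NCBP2 arm and 10 to 56 between the clones, and members called from 0 to 1 against vector in clone A1, clone A4 and the NCBP2 arm. Members without overlap ranged from 7 to 19 in clone A1, 6 to 21 in clone A4, 2 to 9 in the NCBP2 arm and 6 to 10 between the clones, and the median in clone A4 from -0.42 to -0.22. Shares of all genes without overlap are not given for these fits. Values that turned their sign ranged in clone A1 from -0.046 to 0.25 (ATF3), -0.23 to 0.50 (CHAC1) and -0.063 to 0.68 (SLC7A11), and in clone A4 from -0.96 to 0.16 (CHAC1), -0.56 to 0.19 (SLC7A11) and -0.51 to 0.080 (SLC7A5). In the NCBP2 arm the ranges were -0.25 to 0.15 (CHAC1), -0.11 to 0.14 (MTHFD2) and -0.29 to 0.45 (SLC7A11). Between the clones they were -0.055 to 0.25 (ATF4), -1.04 to 0.10 (CHAC1), -0.16 to 0.33 (DDIT3), -0.061 to 0.38 (PHGDH) and -0.15 to 0.49 (SLC7A5).

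The labels do not say whether libraries with the same replicate letter share anything besides the letter. Deviations of same-letter libraries from their group means correlated at 0.13, -0.03 and 0.18 between the clones, 0.13, 0.16 and -0.10 between clone A1 and vector, and 0.15, 0.10 and -0.10 between clone A4 and vector, for letters A, B and C, so the letter was not used as a pair. With the letter as a replicate block, genes called numbered 38 in clone A1, 53 in clone A4 and 13 in the NCBP2 arm, CHAC1 in clone A1 gave -0.16, and 0 members were called. Members with few reads, such as STC2 and CHAC1, are limited by depth.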
